A study of Mus musculus with 11 samples.

Results

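The genes examined were 10 members of the fibroblast growth factor (FGF) pathway, namely the receptor genes *Fgfr1*, *Fgfr2*, *Fgfr3* and *Fgfr4*, the ligand genes *Fgf1* and *Fgf2*, the binding protein gene *Fgfbp1*, and the Sprouty genes *Spry1*, *Spry2* and *Spry4*. They were taken by symbol from the 27179 genes of the count tables, and each matched 1 gene. RNA-seq counts were available for 11 libraries of mouse mammary cells. Wild-type virgin FVB/N females, given as 8 weeks old by the labels, were the source of 3 libraries each of MaSC/basal cells (CD24+CD29hi, enriched for mammary stem cells), LP cells (CD24+CD29loCD61+, enriched for luminal progenitors) and ML cells (CD24+CD29loCD61-, enriched for mature luminal cells). The mammosphere library came from MaSC/basal cells of such mice cultured in suspension for 1 week in a medium that contained EGF and basic FGF, the protein encoded by *Fgf2*. The Comma Dβ library came from an established mammary epithelial line (CommaD-βGeo, labelled wild type, Balb/c, mid-pregnancy) under maintenance conditions. No group received any other treatment or carried an engineered allele according to the labels, although the submitted name of MaSC/basal replicate 1 contains p53. The labels place the libraries in 3 batches, with MaSC/basal replicate 1 in batch 1 and replicates 2 and 3 in batch 2, and with LP and ML replicates 1 to 3 in batches 1 to 3. Each cultured sample is 1 library and carries no replicate error.

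FGFs are secreted proteins that bind receptor tyrosine kinases together with heparan sulphate, and the activated receptors signal through adaptor proteins to the RAS, RAF and ERK cascade. Sprouty proteins are induced by this signalling and restrain it, so that they act as feedback inhibitors. In the mammary gland, *Fgfr1* and *Fgfr2* are known to act in the epithelium during branching, and FGFs of the surrounding stroma are among their ligands. The gene counts do not separate the splice forms of a receptor, so the IIIb and IIIc forms of *Fgfr2*, which bind different ligands, were measured together.

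Counted reads ranged from 19958838 to 75795034 per library (median 38388464), and 3 reads, the limit that a count of 0 allows, correspond to 0.0399 to 0.160 CPM (counts relative to library size, scaled by TMM normalization). The markers followed the labels, as all 6 basal markers were higher and all 6 luminal markers lower in MaSC/basal cells than in LP and ML cells, 4 of 5 LP markers were higher in LP than in ML cells, and all 5 ML markers were lower (edgeR quasi-likelihood test, adjusted p under 0.05). Summed fibroblast markers spanned 582 to 864 CPM over the MaSC/basal libraries, 285 to 1377 CPM over LP and 409 to 929 CPM over ML libraries. The 5 endothelial markers summed to 43.2 to 89.4 CPM in MaSC/basal cells, above the 10.5 to 25.7 CPM of LP and the 7.27 to 37.4 CPM of ML cells, and 4 of the 5 were higher in MaSC/basal than in LP cells and 2 than in ML cells. Of the 5 pericyte markers, *Pdgfrb* and *Cspg4* were higher in MaSC/basal than in LP (2.08 and 4.48 on the log2 scale) and ML cells (2.71 and 3.19), *Rgs5* was higher than in LP cells, and *Notch3* was lower in both (-3.57 and -3.85). The sum of the 5 adipocyte markers spanned 30.3 to 68.9 CPM over the MaSC/basal libraries, against 4.62 to 16.6 CPM over LP and 3.22 to 36.2 CPM over ML libraries. Of these, *Lep* was higher in MaSC/basal cells (5.47 and 7.07, FDR = 0.000252 and 8.97e-05), *Fabp4* was not called, and *Adipoq*, *Plin1* and *Cidec* did not pass the filter on low counts. Leukocyte markers were not called. The part of these markers in the MaSC/basal levels of *Fgfr4*, *Fgf2*, *Spry1* and the other genes below was not tested. In whole-population RNA, fewer cells of a type and less RNA per cell cannot be told apart.

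The 4 receptor genes differed between the populations in distinct ways. *Fgfr1* was highest in LP cells, *Fgfr2* was about 4-fold higher in ML cells than in both other populations, and *Fgfr4* was found almost entirely in MaSC/basal cells. *Fgfr3* was lowest in LP cells. *Fgfr2* and *Fgfr4* are shown with the sequences upstream of their RefSeq starts, beside that of *Spry1*, since *Fgfr4* and *Spry1* were the receptor and Sprouty genes most raised in MaSC/basal cells and *Fgfr2* the receptor gene raised in ML cells. Each line gives the 250 bases before the start, 5′ to 3′ on the strand of the gene (RefSeq, GRCm38.p6), at chr7:130266809-130267058 (minus strand) for *Fgfr2*, chr13:55152568-55152817 (plus strand) for *Fgfr4* and chr3:37639697-37639946 (plus strand) for *Spry1*. Capitals mark matches to a GC box (GGGCGG) or an ETS core (CCGGAA) on either strand.
Fgfr2: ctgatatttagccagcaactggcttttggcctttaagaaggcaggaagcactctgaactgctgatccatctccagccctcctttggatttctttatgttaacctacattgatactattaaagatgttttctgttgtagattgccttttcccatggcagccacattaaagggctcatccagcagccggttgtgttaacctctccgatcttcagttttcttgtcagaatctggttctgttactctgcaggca
Fgfr4: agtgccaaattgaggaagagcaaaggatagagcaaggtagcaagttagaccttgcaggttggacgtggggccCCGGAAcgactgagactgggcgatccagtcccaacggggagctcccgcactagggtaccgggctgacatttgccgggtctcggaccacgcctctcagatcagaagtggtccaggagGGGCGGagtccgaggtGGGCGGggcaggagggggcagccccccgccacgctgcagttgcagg
Spry1: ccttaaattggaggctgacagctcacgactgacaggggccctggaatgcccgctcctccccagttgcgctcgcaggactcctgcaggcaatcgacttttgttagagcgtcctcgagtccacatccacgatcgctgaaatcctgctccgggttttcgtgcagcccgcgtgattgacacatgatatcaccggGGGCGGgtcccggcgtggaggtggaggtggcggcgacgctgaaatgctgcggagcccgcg
The *Fgfr2* sequence holds 2 CpG dinucleotides and 44.0% G and C, those of *Fgfr4* and *Spry1* hold 15 and 23 CpG with 64.0% and 62.4%, and the median of 32851 RefSeq promoters was 6 CpG and 52.4%. *Fgfr4* has 2 GC boxes and 1 ETS core, *Spry1* has 1 GC box, and *Fgfr2* has no match to these, to the AP-1 site TGANTCA, to the TATA box TATAAA or to the CArG box. Over windows of the same length, 32.7% of all promoters held the GC box, 12.0% the ETS core, 6.75% the AP-1 site, 12.4% the TATA box and 1.47% the CArG box. A match is a description of letters and not a binding site. RefSeq promoter entries were found for 7 of the 10 genes, and *Fgfr1*, *Fgf1* and *Spry4* had none in the table used here.

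In MaSC/basal libraries *Fgfr1* stood at 462, 501 and 522 CPM, compared with 781, 723 and 678 in LP and 409, 421 and 481 in ML libraries (replicates 1 to 3 in each). The LP libraries lay above all others, while MaSC/basal and ML libraries overlapped. LP cells exceeded MaSC/basal cells by a small margin, with a log2 fold change (MaSC/basal minus LP) of -0.55 (SE 0.14, FDR = 0.00679, where FDR is the Benjamini-Hochberg adjusted p of the edgeR quasi-likelihood test over 15422 genes), and exceeded ML cells by 0.74 (SE 0.14, FDR = 0.00441). Between MaSC/basal and ML cells the log2 fold change was 0.18 (SE 0.14, FDR = 0.29). 

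*Fgfr2* stood, in MaSC/basal libraries, at 254, 247 and 226 CPM, compared with 144, 238 and 333 in LP and 1003, 704 and 1239 in ML libraries. Every ML library lay above every library of both other populations, which overlapped. The log2 fold change was -2.02 for MaSC/basal against ML cells (SE 0.30, FDR = 0.000243) and -2.04 for LP against ML cells (SE 0.30, FDR = 0.00145), whereas MaSC/basal and LP cells differed by 0.02 (SE 0.29, FDR = 0.952). The level varied within the luminal populations along with the 5 ML markers. The summed ML markers (among them *Esr1*, *Prlr* and *Foxa1*) were 686, 1124 and 1658 CPM in LP replicates 1 to 3 and 5636, 3774 and 6302 CPM in ML replicates 1 to 3, in the same order as *Fgfr2* in both. Their part in the result was not tested.

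In MaSC/basal libraries *Fgfr3* stood at 29.1, 37.8 and 31.7 CPM, compared with 18.3, 19.6 and 17.7 in LP and 21.5, 26.0 and 36.2 in ML libraries. The LP libraries were the lowest and overlapped with no other, and MaSC/basal cells exceeded LP cells by 0.82 (SE 0.19, FDR = 0.00451). The difference of -0.59 between LP and ML cells (SE 0.19, FDR = 0.0433) lay close to the threshold. It was lost with limma voom (FDR = 0.0737) and when any 1 of the primary libraries other than ML replicate 1 was left out, with FDR up to 0.156 without ML replicate 3. MaSC/basal and ML cells differed by 0.24 (SE 0.19, FDR = 0.31), a difference called without ML replicate 3 (0.47, FDR = 0.0441).

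*Fgfr4* had 12.1, 11.1 and 14.5 CPM in the MaSC/basal libraries. In LP cells it had 0.247, 0.599 and 0.214 CPM, which rest on 7, 32 and 4 reads. In ML cells it had 0.0849 and 0.159 CPM in replicates 1 and 2, from 3 and 12 reads, and no read in replicate 3. All MaSC/basal libraries were thus well above the luminal libraries, some of which were near the limit of 3 reads. The log2 fold change was 5.01 against LP cells (SE 0.49, FDR = 1.51e-05) and 6.87 against ML cells (SE 0.56, FDR = 3.99e-06). *Fgfr4* passed the filter on low counts only with the MaSC/basal libraries counted, so these tests are not free of the filter. LP cells exceeded ML cells by 1.86 (SE 0.60, FDR = 0.0393), a call lost when LP replicate 2, which held most of the LP reads, was left out (1.15, FDR = 0.248), and also without MaSC/basal replicate 1, 2 or 3 or ML replicate 1 or 3.

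Levels of different receptors can be set side by side only per length, as reads per kilobase of the deposited exon length relative to library size (RPKM). On this scale *Fgfr1* made up 63.5 ± 2.21% of the summed receptor level of MaSC/basal cells, 75.0 ± 8.11% in LP cells and 32.1 ± 5.06% in ML cells (mean and SD of 3 libraries each). *Fgfr2* accounted for 29.2 ± 2.45%, 22.8 ± 8.22% and 65.6 ± 5.36%. *Fgfr1* was therefore the most abundant receptor transcript in every MaSC/basal and LP library and *Fgfr2* in every ML library. The ratio of *Fgfr2* to *Fgfr1* per length, which does not depend on the scaling of the libraries, was 0.406 to 0.514 over the MaSC/basal libraries, 0.173 to 0.460 over LP and 1.57 to 2.41 over ML libraries. *Fgfr3* contributed means of 4.79%, 2.17% and 2.30%, and *Fgfr4* of 2.56%, 0.0580% and 0.0109%. The sum of the 4 genes averaged 156 ± 4.68 RPKM in MaSC/basal cells, with 194 ± 7.38 in LP and 277 ± 57.3 in ML.

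**Figure D1:**
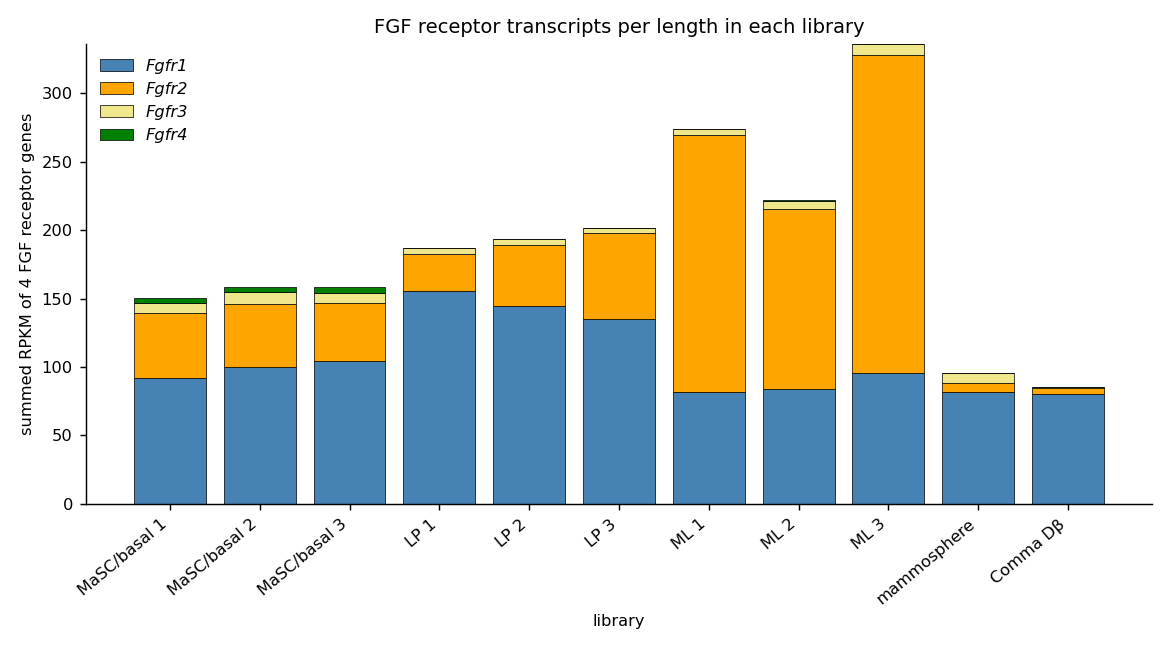
Stacked bars give the RPKM (linear axis) of the 4 receptor genes in each of the 11 libraries. *Fgfr2* exceeds *Fgfr1* only in the 3 ML libraries, where the ratio is 1.57 to 2.41, and in the mammosphere and Comma Dβ bars *Fgfr1* makes up 85.8% and 94.6%.

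Both ligand genes were higher in MaSC/basal than in LP cells, but they differed in ML cells. *Fgf1*, whose protein can bind all FGF receptors, stood at 20.4, 38.2 and 24.1 CPM in MaSC/basal libraries, compared with 3.03, 5.50 and 10.3 in LP and 19.6, 18.0 and 35.1 in ML libraries. The LP libraries were the lowest, and MaSC/basal and ML libraries overlapped. The log2 fold change was 2.15 for MaSC/basal against LP cells (SE 0.44, FDR = 0.00207) and -1.96 for LP against ML cells (SE 0.44, FDR = 0.00882), with 0.19 between MaSC/basal and ML cells (SE 0.42, FDR = 0.718). The batch 3 library was the highest in both LP and ML cells.

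*Fgf2* stood, in MaSC/basal libraries, at 4.33, 3.31 and 8.61 CPM, compared with 0.564, 0.618 and 0.214 in LP and 0.141, 0.146 and 0.137 in ML libraries. Per length, its MaSC/basal mean of 7.79 RPKM was near the 7.05 RPKM of *Fgf1*, while its LP and ML means were 0.669 and 0.204 RPKM. The 3 populations did not overlap. MaSC/basal cells exceeded LP cells by 3.45 (SE 0.45, FDR = 0.000107) and ML cells by 5.22 (SE 0.51, FDR = 1.40e-05). The call of LP over ML cells (1.76, SE 0.54, FDR = 0.0324) was lost with limma voom (FDR = 0.126) and without LP replicate 1 or 2 or ML replicate 1, 2 or 3, with FDR up to 0.118. *Fgf2* was counted over 695 exon bases, 10.5% of its exon bases in GENCODE M21, and an antisense gene, *Nudt6* (chosen after its values were seen), shares 640 exon bases with it in that annotation. How many of the 695 counted bases are shared was not examined. Where counted bases are shared, reads of the partners cannot be told apart without strand. *Nudt6* was also higher in MaSC/basal cells, by 1.87 against LP (FDR = 0.000356) and 1.68 against ML cells (FDR = 0.00059). *Fgf2* had 0.427 to 0.536 reads per *Nudt6* read over the MaSC/basal libraries, 0.0690 to 0.201 over LP and 0.0336 to 0.05 over ML libraries. The ML ratios rest on 5, 11 and 3 *Fgf2* reads in replicates 1 to 3. The part of *Nudt6* reads in the *Fgf2* values was not tested.

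*Fgfbp1* encodes a secreted carrier that releases FGFs from the matrix. It stood at 0.339, 0.538 and 0.377 CPM in MaSC/basal libraries (20, 27 and 20 reads), 0.353, 0.0749 and 0.107 in LP (10, 4 and 2 reads) and 0.651, 0.505 and 7.15 in ML libraries (23, 38 and 157 reads). ML replicate 3 stood far above the other primary libraries, and MaSC/basal and ML libraries overlapped. The differences of -2.66 against MaSC/basal (SE 0.95, FDR = 0.0342) and -3.95 for LP against ML cells (SE 1.12, FDR = 0.0239) rested on that library, since they were -0.45 (FDR = 0.451) and -1.74 (FDR = 0.0523) without it. The first was also lost without MaSC/basal replicate 1, 2 or 3, with limma voom (-1.32, FDR = 0.215) and with batch as a replicate block (-0.80, FDR = 0.382), and the second without LP replicate 2 or 3 (FDR up to 0.0925) and with limma voom (FDR = 0.0803). ML replicate 3 also held 141 CPM of the basal keratin *Krt5*, against 13.2 and 14.6 CPM in ML replicates 1 and 2, and summed basal markers of 358 CPM against 70.3 and 97.6 CPM. Their part in the *Fgfbp1* value was not tested. MaSC/basal and LP cells differed by 1.29 (SE 1.17, FDR = 0.371).

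**Figure D2:**
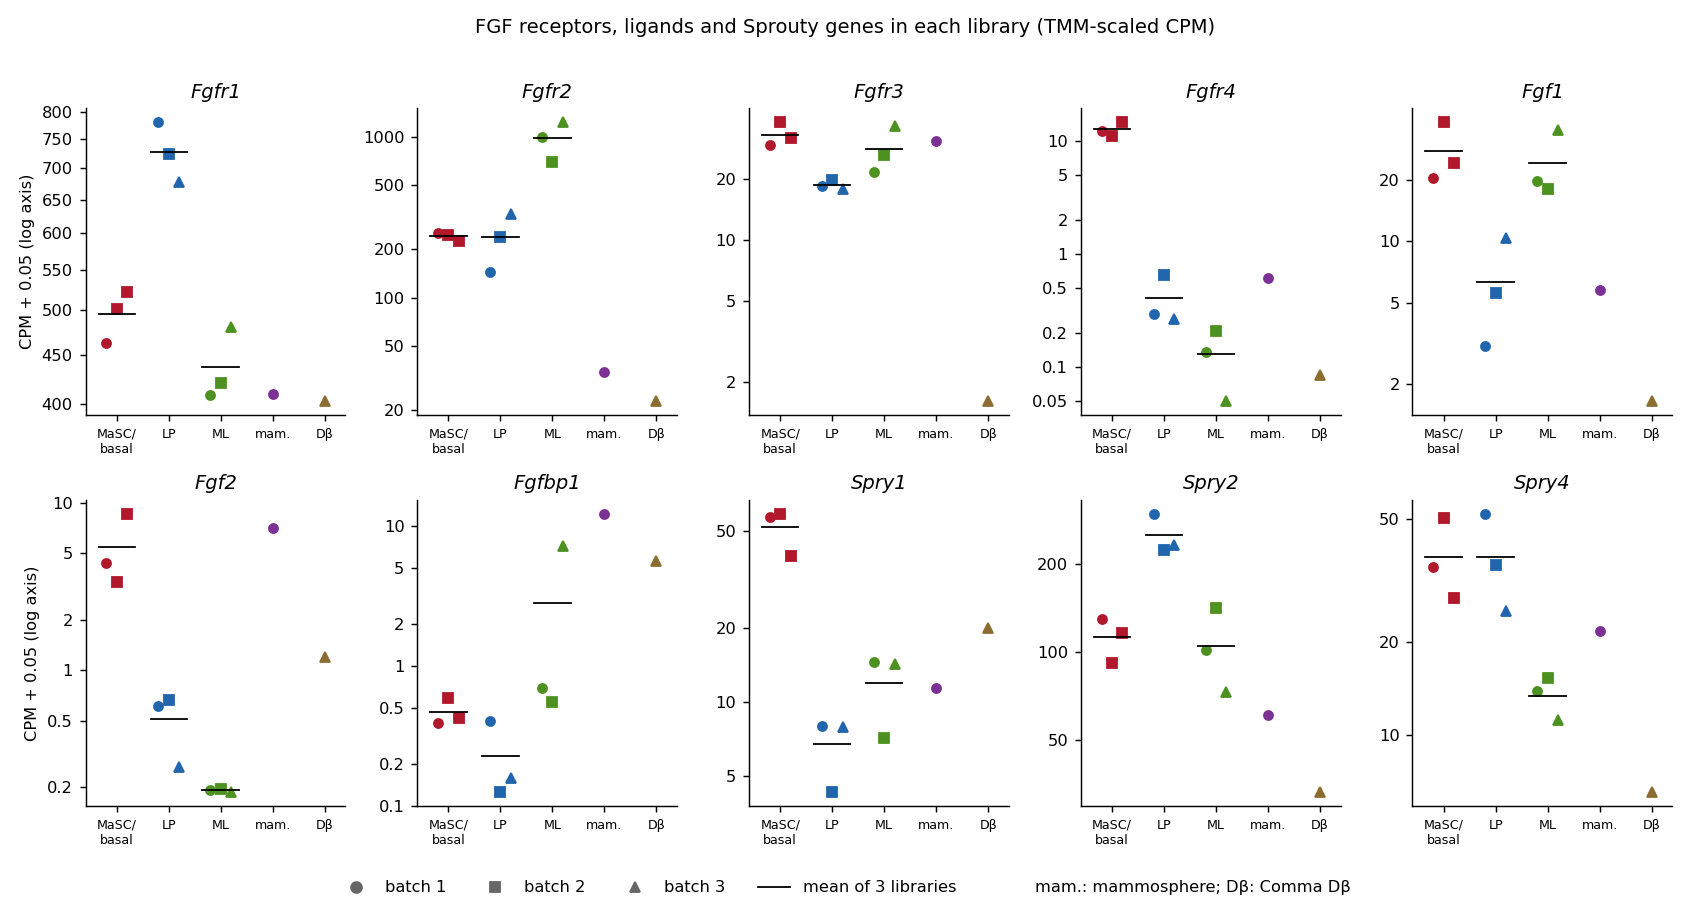
Each panel plots 1 gene, with CPM plus 0.05 on a log axis against the 5 sample types. Points are libraries (shape gives the batch) and lines are means of 3 libraries. *Fgfr4*, *Fgf2* and *Spry1* are highest in MaSC/basal among the sorted cells, *Fgfr2* in ML and *Fgfr1* and *Spry2* in LP cells, and the ML mean of *Fgfbp1* rests on 1 library at 7.15 CPM.

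The 3 Sprouty genes, which encode feedback inhibitors of receptor tyrosine kinase signalling, each had a pattern of their own. *Spry1* was high in MaSC/basal, *Spry2* in LP, and *Spry4* low in ML cells. In MaSC/basal libraries *Spry1* stood at 57.0, 58.9 and 39.6 CPM, compared with 7.94, 4.23 and 7.85 in LP and 14.5, 7.07 and 14.3 in ML libraries. No MaSC/basal library overlapped with a luminal library, and the log2 fold change was 2.97 against LP (SE 0.34, FDR = 4.59e-05) and 2.13 against ML cells (SE 0.33, FDR = 0.000301). LP and ML libraries overlapped, at -0.85 (SE 0.33, FDR = 0.0741). LP was below ML by 0.87, 0.73 and 0.86 within batches 1, 2 and 3, and the difference passed the threshold with batch as a replicate block (-0.83, FDR = 0.022), with library size alone (-1.02, FDR = 0.04), with DESeq2 (FDR = 0.0461) and without ML replicate 2 (-1.12, FDR = 0.0153).

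In MaSC/basal libraries *Spry2* stood at 129.5, 91.3 and 116 CPM, compared with 297, 223 and 232 in LP and 101, 141 and 72.8 in ML libraries. The LP libraries lay above all others. MaSC/basal cells were lower than LP cells (log2 fold change -1.16, SE 0.24, FDR = 0.00208), and LP exceeded ML cells by 1.26 (SE 0.24, FDR = 0.00431). MaSC/basal and ML libraries overlapped, at 0.10 (SE 0.24, FDR = 0.742).

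*Spry4* stood, in MaSC/basal libraries, at 35.1, 50.4 and 27.8 CPM, compared with 52.2, 35.5 and 25.1 in LP and 13.8, 15.2 and 11.1 in ML libraries. The ML libraries were the lowest, and the other 2 populations overlapped. The log2 fold change was 1.49 against ML cells for both MaSC/basal (SE 0.29, FDR = 0.00137) and LP cells (SE 0.29, FDR = 0.00482). It was 0.00 between MaSC/basal and LP cells (SE 0.28, FDR = 0.993). Per length, *Spry2* was the most abundant Sprouty transcript in all 3 populations, with means of 53.8, 120.1 and 50.3 RPKM in MaSC/basal, LP and ML cells, against 20.8, 2.68 and 4.80 RPKM for *Spry1* and 8.23, 8.19 and 2.91 RPKM for *Spry4*.

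Counted together, 7 of the 10 genes were called in MaSC/basal against LP cells at an adjusted p under 0.05, with 5 higher and 2 lower in MaSC/basal cells, where 57.4% of all genes tested were called (29.4% higher and 28% lower). Between MaSC/basal and ML cells 6 of 10 were called, 4 higher and 2 lower, against 58.7% of all genes (28.9% and 29.7%). These shares are close to the background. Between LP and ML cells 9 of 10 were called, 5 higher and 4 lower, against 31.8% of all genes (14.3% and 17.5%). The number was 5 without LP replicate 2 and 5 without ML replicate 3, where the share of all genes fell to 21.9% and 22.2%. At an adjusted p under 0.001 with a log2 fold change over 2, *Fgfr4*, *Fgf2* and *Spry1* were higher in MaSC/basal than in LP cells (3 of 10, against 9.64% of all genes) and than in ML cells (3 of 10, against 10.2%). *Fgfr4*, counted here and in the 7 and 6 of 10 above, passed the filter on low counts only with the MaSC/basal libraries counted. *Fgfr2* was lower in MaSC/basal than in ML cells on the same rule (1 of 10, against 8.09%). Between LP and ML cells 0 members passed it by edgeR (0.441% of all genes were higher and 0.428% lower), 1 by limma voom (*Fgfr2*) and 2 by DESeq2 (*Fgfr2* and *Fgfbp1*). The libraries of the groups did not overlap for 7 members in MaSC/basal against LP (63.9% of all genes), 5 against ML (65.5%) and 9 in LP against ML (47.9%). The median log2 fold change of the 10 genes was 1.06, 0.21 and 0.07 in the 3 comparisons, beside -0.01 over all genes in each. The comparisons share their populations and are not independent of each other. Of the 22 calls, 17 held under every one of the alternatives and left-out libraries. The 53 differences within batches behind the 22 calls all had the direction called. This adds no support where the libraries of the groups did not overlap, since the direction is then fixed. That was so for every call but *Fgfbp1* in MaSC/basal against ML cells.

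**Figure D3:**
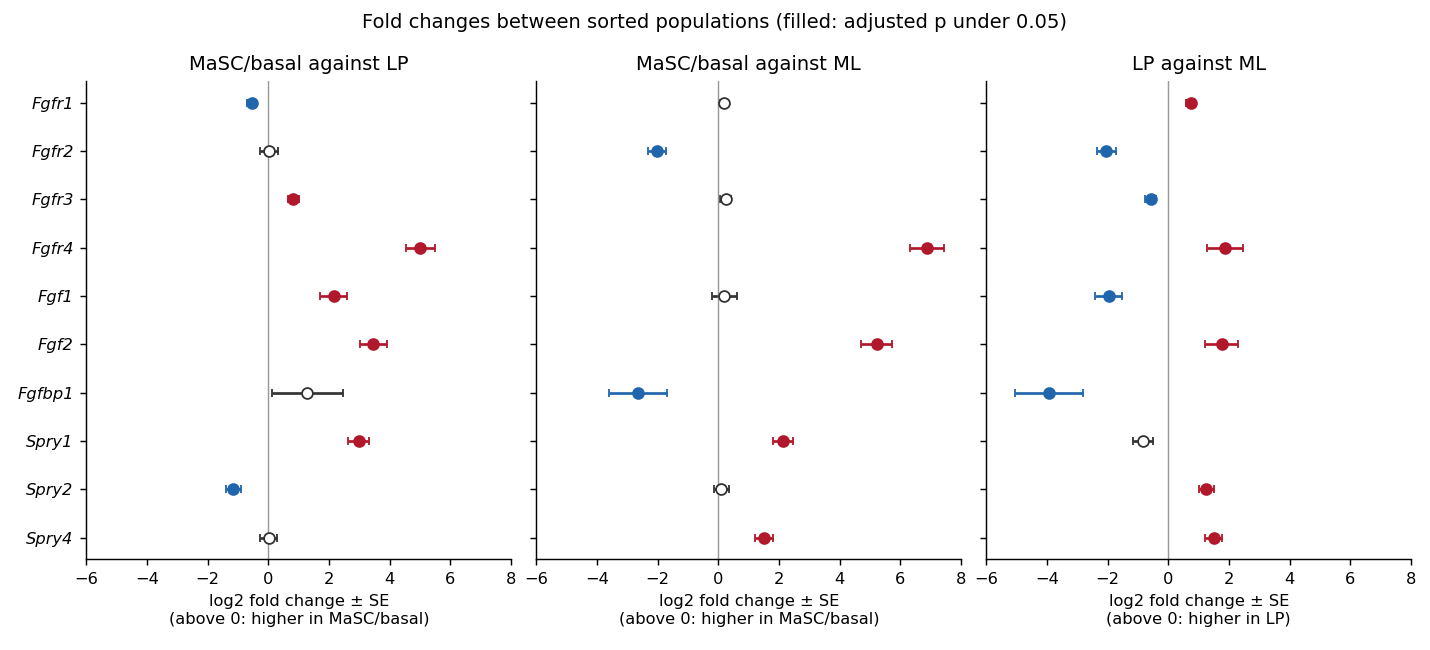
Points are log2 fold changes with SE of the 10 genes in the 3 pairwise comparisons of sorted populations (edgeR, n = 3 libraries each), filled where the adjusted p was under 0.05. *Fgfr4* and *Fgf2* have the largest differences between MaSC/basal and ML cells, at 6.87 and 5.22, and *Fgfr2* lies at -2.02 and -2.04 against ML cells.

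Of the 16 other secreted FGF ligands listed, 5 passed the filter on low counts (*Fgf7*, *Fgf10*, *Fgf17*, *Fgf18* and *Fgf21*). *Fgf21*, which encodes an endocrine FGF, had 4.31, 6.34 and 2.75 CPM in the MaSC/basal libraries and at most 9 reads (0.168 CPM) in any LP or ML library. Its MaSC/basal level was higher by 5.57 against LP (SE 0.64, FDR = 4.49e-05) and 7.95 against ML cells (SE 0.78, FDR = 1.41e-05). No LP or ML library exceeded 0.5 CPM, so *Fgf21* passed the filter through the libraries where it was high. The test is therefore not free of the filter. The adipocyte marker *Lep* moved in the same direction, from 1.22 to 4.27 CPM in MaSC/basal libraries to at most 0.107 CPM in luminal libraries, and its part in the *Fgf21* values was not tested. *Klb* and *Kl*, whose proteins are co-receptors of endocrine FGFs, did not pass the filter, with *Klb* means of 0.344, 0.339 and 0.148 CPM. *Fgf17* and *Fgf18* were higher in MaSC/basal than in ML cells, by 1.54 (FDR = 0.0274) and 1.82 (FDR = 0.00276). Neither was called against LP cells (FDR = 0.0724 and 0.0880). Their MaSC/basal means were only 0.894 and 0.822 CPM, and both passed the filter only with the MaSC/basal libraries counted. *Fgf7* and *Fgf10*, ligands of the IIIb form of *Fgfr2*, were below 2 CPM in the mean of every sorted population with an FDR of at least 0.164 in every comparison.

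The 4 FGF homologous factors, which are not secreted, were all lower in LP than in ML cells, where 17.5% of all genes were, and 3 of 4 were lower in MaSC/basal than in ML cells (29.7% of all genes). *Fgf13* averaged 2.06 ± 0.259 CPM in MaSC/basal cells and 4.06 ± 1.66 in LP, against 21.9 ± 3.36 in ML (log2 fold change of MaSC/basal against ML -3.41, SE 0.31, FDR = 7.96e-06). *Fgf11* was lower in MaSC/basal than in ML cells (-1.55, SE 0.43, FDR = 0.0112) and not called against LP cells (-0.15, FDR = 0.803). *Fgf14* had the other direction, with 2.50 ± 0.516 CPM in MaSC/basal cells, 3.56 above ML cells (SE 0.49, FDR = 0.000147). Of the co-receptors and decoys, *Fgfrl1*, a receptor without a kinase domain, averaged 89.8 ± 23.2 CPM in MaSC/basal cells, with 36.2 ± 9.69 in LP and 19.5 ± 1.91 in ML. Its MaSC/basal level was higher by 1.31 (SE 0.23, FDR = 0.000757) and 2.20 (SE 0.24, FDR = 2.52e-05). *Flrt1*, a membrane protein that binds FGF receptors, was also higher, by 5.33 and 2.99. By contrast, *Flrt3* was lower than in LP cells (-1.48, SE 0.42, FDR = 0.0123), though the libraries overlapped. It was not called against ML cells (0.10, FDR = 0.847). Of the 5 genes of this list tested, 2 were higher and 1 lower in MaSC/basal than in LP cells (29.4% and 28% of all genes). Against ML cells, 2 were higher and 0 lower (28.9% and 29.7%).

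Heparan sulphate carries FGFs to their receptors. Of the 19 proteoglycan and heparan sulphate enzyme genes tested, 12 were higher and 4 lower in MaSC/basal than in LP cells (29.4% and 28% of all genes), and 13 were higher and 1 lower than in ML cells (28.9% and 29.7%). *Sdc3*, a syndecan, averaged 236 ± 33.8 CPM in MaSC/basal cells but 7.82 ± 1.13 in LP and 7.64 ± 2.61 in ML (log2 fold changes 4.91 and 4.93). *Gpc6*, a glypican, was higher by 3.47 and 5.62, and *Ext1*, an enzyme that extends the chains, by 2.46 and 2.67. *Sulf2*, which removes sulphate groups from the chains, had the opposite direction, averaging 21.4 ± 1.40 CPM in MaSC/basal cells but 340.5 ± 64.3 in LP and 192 ± 60.0 in ML, and was the gene lower in MaSC/basal cells in both comparisons.

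Among the 11 adaptor genes, 2 were higher and 4 lower in MaSC/basal than in LP cells, and 4 higher and 2 lower than in ML cells, shares close to the 57.4% and 58.7% of all genes called in either direction. The docking protein gene *Gab2* averaged 2.34 ± 0.374 CPM in MaSC/basal cells but 46.0 ± 9.72 in LP and 23.7 ± 4.17 in ML (log2 fold changes -4.30 and -3.34, FDR = 4.72e-07 and 1.16e-06). *Plcg1*, a phospholipase recruited by FGF receptors, was higher in MaSC/basal cells by 1.97 and 2.31. *Gab1* was lower than in LP cells, at -0.89 (FDR = 0.00147).

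Of the 8 other feedback inhibitor genes tested, 3 were higher and 2 lower in MaSC/basal than in LP cells, and 4 higher and 2 lower than in ML cells, beside 57.4% and 58.7% of all genes called in either direction. *Spred1*, a relative of the Sprouty genes, had 199.8 ± 35.4 CPM in MaSC/basal cells and was higher by 1.71 (SE 0.15, FDR = 8.09e-06) and 1.91 (SE 0.15, FDR = 3.64e-06). *Il17rd*, also called Sef, was higher by 1.84 and 0.90. *Dusp4*, an ERK phosphatase of the nucleus, was lower by contrast, at -1.65 and -1.94. *Dusp6*, a cytoplasmic ERK phosphatase chosen after its values were seen, averaged 704 ± 16.3 CPM in MaSC/basal cells, with 784 ± 169.9 in LP and 339 ± 52.5 in ML. Like *Spry4*, it was called lower in ML than in MaSC/basal (1.05, SE 0.19, FDR = 0.000879) and LP cells (1.21, SE 0.19, FDR = 0.0019).

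Of the 7 genes for ERK-responsive transcription factors and cyclin D1, 3 were higher in MaSC/basal than in LP cells and 4 than in ML cells, where 29.4% and 28.9% of all genes were higher. *Etv4* and *Etv5*, ETS factors known as transcriptional readouts of FGF signalling, had 113 ± 46.7 and 93.0 ± 22.9 CPM in MaSC/basal cells. *Etv4* averaged 8.39 ± 2.61 in LP and 22.8 ± 4.01 in ML (log2 fold changes of MaSC/basal 3.76 and 2.32, FDR = 1.35e-05 and 0.000201). *Etv5* averaged 19.2 ± 4.27 and 10.3 ± 1.65 CPM there (2.28 and 3.17, FDR = 1.80e-05 and 2.36e-06). *Fosl1*, an AP-1 component, was higher than in ML cells by 1.25 (FDR = 0.0066). These genes respond to ERK signalling from other receptors as well.

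**Figure D4:**
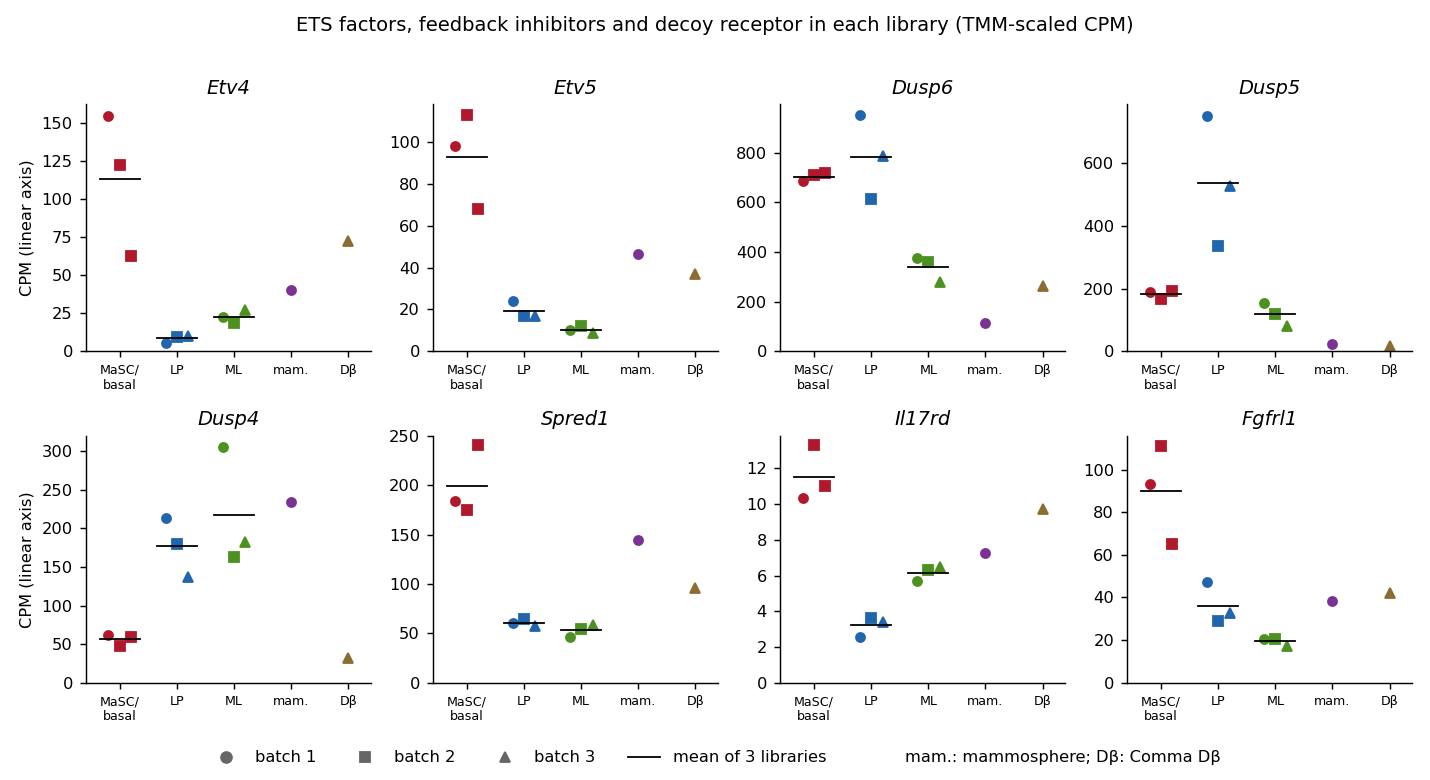
Panels give CPM (linear axis from 0) of *Etv4*, *Etv5*, 5 feedback inhibitor genes and *Fgfrl1* in each library, with lines at means of 3 libraries. *Etv4* and *Etv5* are highest in MaSC/basal cells (means 113 and 93.0 CPM), *Dusp4* is lowest there among the sorted cells (56.5 CPM), and *Dusp6* is at 114 CPM in the mammosphere library.

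The cultured libraries were compared with the 3 MaSC/basal libraries as a description, since 1 library each allows no test. A value was counted as different when its log2 CPM was over 1 from the MaSC/basal mean and outside the range of the MaSC/basal libraries. In mammospheres 5 of the 10 genes met this, 1 higher and 4 lower, where 39.6% of all genes did (19.6% higher and 20% lower). In Comma Dβ cells 9 of 10 did, 1 higher and 8 lower, where 41.6% of all genes did (16.9% and 24.8%).

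*Fgfr1* stayed near the MaSC/basal level in both, with 410.4 CPM in the mammosphere and 403 CPM in the Comma Dβ library. *Fgfr2* was low in both, with 34.4 CPM (95% exact Poisson interval 32.7 to 36.2) and 22.6 CPM (20.9 to 24.4), differences of -2.81 and -3.42 in log2 CPM. The intervals cover counting error only. *Fgfr1* accordingly made up 85.8% and 94.6% of the summed receptor RPKM, and the ratio of *Fgfr2* to *Fgfr1* was 0.0785 and 0.0525, below that of every primary library. *Fgfr3* had 30.7 CPM in mammospheres, within the MaSC/basal range, and 1.57 CPM in Comma Dβ cells (46 reads, difference -4.34). *Fgfr4* had 25 reads in mammospheres (0.564 CPM, interval 0.365 to 0.832) and 1 read in Comma Dβ cells (0.0340 CPM, interval 0.000862 to 0.190), against 11.1 to 14.5 CPM in MaSC/basal libraries.

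*Fgf1* was lower in both cultures, with 5.70 CPM (-2.21) and 1.60 CPM (-4.01). *Fgf2* remained within the MaSC/basal range in mammospheres (7.04 CPM, 312 reads) and was lower in Comma Dβ cells (1.16 CPM, 34 reads, -2.06). *Fgfbp1* was the one member higher in culture, with 12.3 CPM (544 reads, 4.75) and 5.55 CPM (163 reads, 3.61), against at most 0.538 CPM in MaSC/basal libraries. *Fgf10*, a listed ligand, was also higher in both, with 2.75 and 6.37 CPM against 0.561 ± 0.118 CPM. Of the 5 listed ligands with a value, 1 was higher and 2 lower in mammospheres (19.6% and 20% of all genes). In Comma Dβ cells 2 were higher and 3 lower (16.9% and 24.8%). *Fgf17* (-3.72 and -2.07) and *Fgf21* (-1.19 and -4.09) were lower in both. *Fgf7* was higher and *Fgf18* lower in Comma Dβ cells alone.

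*Spry1* fell outside the MaSC/basal range in both, with 11.4 CPM in the mammosphere (-2.16) and 20.0 CPM in the Comma Dβ library (-1.35). *Spry2* and *Spry4* had 60.6 and 21.6 CPM in mammospheres, differences of -0.88 and -0.76 that did not reach 1, and 33.1 and 6.47 CPM in Comma Dβ cells (-1.75 and -2.49). Of the 8 other feedback inhibitor genes, 2 were lower and 2 higher in mammospheres (20% and 19.6% of all genes). *Dusp6* had 114 CPM (-2.62) and *Dusp5* 23.2 CPM (-2.98), while *Dusp4* had 234 CPM (2.06) and *Spred3* lay 2.31 above the MaSC/basal mean. In Comma Dβ cells 3 were lower and 1, *Spred3*, was higher (24.8% and 16.9% of all genes). Of the 7 transcription factor and cyclin genes, 4 were lower in mammospheres, where 20% of all genes were, among them *Etv4* with 40.5 CPM (-1.39) and *Fosl1* with 6.63 CPM (-3.95). *Egr1*, an early response gene, was at 78.8 CPM, but it varied from 683 to 3409.7 CPM among the MaSC/basal libraries themselves. Of the same 7 genes, 5 were lower and 1 higher in Comma Dβ cells (24.8% and 16.9% of all genes).

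Other markers moved in the cultures too. All 6 basal and all 5 endothelial markers were lower in both. In mammospheres 3 of 6 luminal markers (*Krt8*, *Krt18* and *Krt19*) and 4 of 5 LP markers (*Kit*, *Elf5*, *Aldh1a3* and *Cd14*) were higher, with a median difference of 3.61 over the LP list, and 3 of 5 ML markers were higher and 2 lower. In Comma Dβ cells 5 of 6 luminal, 2 of 5 LP and 2 of 5 ML markers were lower and the others met the rule in neither direction. Summed fibroblast markers were 2411 and 3670.3 CPM against 582 to 864 CPM in MaSC/basal cells, with 5 of 6 higher in mammospheres and 4 higher in Comma Dβ cells, where *Dcn* and *Lum* were lower (-1.03 and -4.20). *Pdgfrb*, *Cspg4* and *Notch3* of the 5 pericyte markers were higher and *Rgs5* lower in mammospheres, whereas *Pdgfrb* alone was higher and the other 4 lower in Comma Dβ cells. Both adipocyte markers with a value were lower in each culture, and of 3 leukocyte markers 2 were higher in mammospheres and all 3 lower in Comma Dβ cells. Their part in the differences was not tested. The mammosphere library belongs to batch 1 and the Comma Dβ library to batch 3, which holds no MaSC/basal library, so that for Comma Dβ cells the batch, the strain and the line cannot be told apart.

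**Figure D5:**
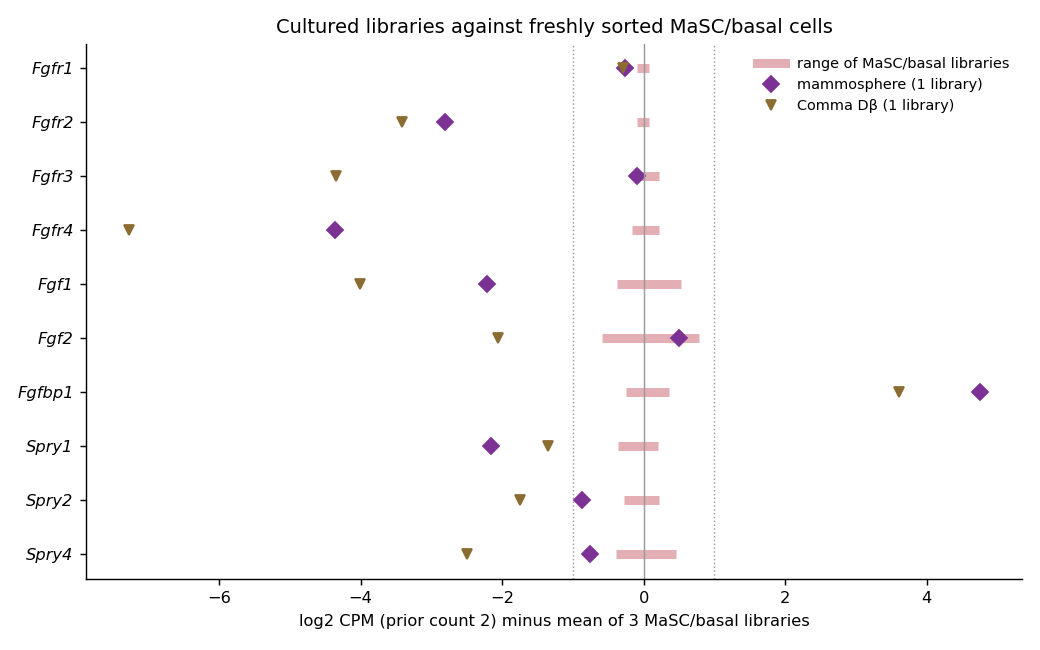
Points give log2 CPM (prior count 2) of the mammosphere and Comma Dβ libraries minus the mean of 3 MaSC/basal libraries, whose range is shaded, and dotted lines mark a difference of 1. *Fgfbp1* alone lies above the dotted lines, at 4.75 and 3.61. The *Fgfr4* point of Comma Dβ cells rests on 1 read.

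The genes with profiles most like 4 of the members were found by the root mean square (RMS) difference of gene-centred log2 CPM over the 11 libraries, which share depth and batch within a library. *Mafg* and *Bicral* were among the 3 nearest to *Fgfr1* (RMS 0.146 and 0.155), *Tmem158* and *Fam43a* among those of *Fgfr2* (0.396 and 0.430), *Kcna7*, *C1qtnf4* and *Pycard* were nearest to *Fgfr3* (0.295, 0.311 and 0.333), and *Adgra3*, *Apbb1* and *Man2a2* to *Spry1* (0.393, 0.409 and 0.410). Over the 9 primary libraries alone, 0 of the 3 nearest genes were shared for each of the 4.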

How the data were processed

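Single-end RNA-seq reads of 11 libraries were aligned by the authors to mm10 (GRCm38) with Rsubread and assigned to Entrez genes with featureCounts, and the deposited tables hold raw, unnormalized counts with an exon length for each of 27179 genes. The labels list CASAVA 1.8.0, edgeR 3.6.2 and limma 3.20.5 among the tools of the submitters' processing notes. How multi-mapping reads were treated, which could affect a receptor family, is not given in the sources used here, and the TruSeq kits do not mark strand. The other values deposited, exon lengths, were used for RPKM. The study describes 3 independent samples per population and does not say how many mice each came from.

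Counts were analysed with edgeR 4.0.16 in R 4.3.3. Genes over 0.5 CPM in at least 3 libraries were kept (15422), TMM factors (0.863 to 1.21) were computed, and the 5 sample types were fitted jointly, 1 mean per type, by quasi-likelihood over all libraries. Genes were called at an adjusted p under 0.05. All 10 members passed the filter, *Fgfbp1* through the ML and cultured libraries, with single MaSC/basal values at most 0.538 CPM. *Fgfr4*, *Fgf14*, *Fgf17*, *Fgf18*, *Fgf21*, *Flrt1* and *Lep* passed only with the MaSC/basal libraries counted, where they were highest among the sorted cells. Their tests against LP and ML cells are thus not free of the filter. Cultured libraries were compared by log2 CPM (prior count 2) without a test. Alternatives were size factors of DESeq2, unscaled library sizes, the voom method of limma 3.58.1, the test of DESeq2 1.42.0, other filters, the 9 primary libraries alone, batch as a replicate block and leaving out each primary library.

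The members, lists and tests were chosen with earlier results of these data known. Members were all named, and of each other pathway list up to 3 genes with the smallest adjusted p in MaSC/basal against LP or ML cells. Any gene named beyond these was chosen after its values were seen. In a simulation of 15422 genes, 200 of them shifted by 2 on the log2 scale in MaSC/basal cells, 177 were recovered against LP with 9 false calls and 177 against ML cells with 7. The simulated counts were drawn independently without batches, and far fewer genes changed than the 57.4% called against LP cells here. These rates therefore need not hold for the data. The labels give the batch of each library, and replicate numbers follow the batches except in MaSC/basal cells, where replicates 2 and 3 are both of batch 2. Deviations from group means correlated at -0.118 to 0.526 in the 9 same-batch pairs of libraries (median 0.240) and at -0.419 to 0.114 in the 18 other pairs. Libraries of 1 population differed by more than sampling noise (chi-square per degree of freedom 52.1 to 186), and each was counted as 1 sample. This does not show whether they came from separate animals. Differences between libraries may be technical in part, and p-values measure the spread between these samples.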

Additional observations from a re-analysis of the deposited data

How the results depend on the processing

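Of the 22 calls between sorted populations, 17 held under all alternatives. The number of members called stayed at 7 between MaSC/basal and LP cells under every setting, where 42.2% to 59.4% of all genes were called. It was 5 or 6 between MaSC/basal and ML cells (43.6% to 60.5% of all genes). Over the settings that keep all primary libraries it was 6 to 10 between LP and ML cells (20.7% to 36.6% of all genes), with 6 under limma voom (30.5%). Leaving out 1 library in turn, the last number ranged from 5 (without LP replicate 2 and without ML replicate 3) to 8. The share of all genes called ranged from 19.9% to 33.3% over these. With batch as a replicate block, *Fgfbp1* was no longer called between MaSC/basal and ML cells (-0.80, adjusted p = 0.382), *Spry1* was called between LP and ML cells (-0.83, adjusted p = 0.022), and no other call changed. Signs turned only for differences close to 0 that were not called. *Spry4* in MaSC/basal against LP cells was -0.0024 with DESeq2 size factors, -0.0012 with limma voom, -0.0017 with DESeq2, -0.0021 without a filter, -0.13 with the block and -0.27 to 0.30 with 1 library left out. *Fgfr2* in the same comparison ranged from -0.25 to 0.34 with 1 library left out. Against ML cells, *Fgf1* was -0.11 without MaSC/basal replicate 2 and at most 0.55 with another library left out, and *Spry2* was -0.010 with the block and -0.11 to 0.37 with 1 library left out. Without TMM scaling the median of all genes moved by 0.22 in mammospheres and 0.29 in Comma Dβ cells, and *Fgfr3* in mammospheres went from -0.09 to 0.14, a value not called. Leaving out 1 MaSC/basal library as reference for the cultures was chosen after seeing the data. The values of *Fgfr4* in luminal and Comma Dβ cells, *Fgf2* in ML cells and *Fgfbp1* in LP cells are limited by depth, as they rest on a few reads.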
